A study of Mus musculus with 8 samples.

Results

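Integrins are the membrane receptors through which cells hold their matrix, and this account follows 10 of their subunit genes in mouse hepatic stellate cells: Itga1, Itga2, Itga4, Itga5, Itga8, Itga9, Itga11, Itgav, Itgb3 and Itgb8. They are 10 of the 26 integrin subunit genes, and of the 22180 genes, that could be named on the arrays. The 10 symbols were selected on earlier results of these arrays, and each gene's probe set was chosen by its mean log2 level, the highest over all 8 arrays. All 10 genes differed between cultured and quiescent cells, so the choice is taken to rest on that contrast. Its differences are described for each of the 10 without a test, and its calls enter only counts and checks of their stability. Comparisons that share the quiescent or cultured arrays with it are not independent of the choice. Their p-values and the stability of their calls for the 10 genes are therefore descriptive.

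The 4 groups had 2 Affymetrix arrays each, 8 in all, and all RNA came from primary hepatic stellate cells of BALB/c mice, an inbred strain. Quiescent cells (0 hours) came from healthy livers and were not seeded. Such cells kept for 10 days on plastic, in medium with serum, made the in vitro activated group. The remaining groups were activated in vivo, by giving mice the liver toxin carbon tetrachloride (CCl4) over 2 or 4 weeks, and were also not seeded. A protocol text attached to every sample names valproic acid at 2.5 mM from 2 hours after seeding. No title or treatment label names that agent, and whether it reached the cultures is unknown here. Whether a group's arrays stand for separate mice or isolations, or for pools, is not in the labels. P-values therefore reflect no more than the spread of these samples, possibly a technical one.

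An integrin is a pair of an alpha and a beta subunit, and the pair sets which ligand is bound. The beta1 subunit pairs with alpha1, alpha2 and alpha11 to bind collagen. Alpha5, alphav and alpha8 make receptors for the RGD peptide of fibronectin, vitronectin or nephronectin. Alpha4 and alpha9 form a branch of their own, with ligands such as VCAM1 and tenascin C. Alphav paired with beta8 or other beta subunits can release active TGF-beta from its latent complex, and stellate cells are known to use alphav integrins in this way in liver fibrosis.

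Levels below are log2 RMA values, the authors' normalized intensity scale, on which 1 unit is a doubling. As a guide to background, 1394 olfactory and vomeronasal receptor genes, which liver cells are not known to use, centred on 3.23 (median), with their 95th percentile at 4.69. Of the 10 subunits, 8 lay above that percentile on all 8 arrays, while Itga2 fell under it on 1 quiescent array and Itgb8 on 1 cultured array. No filter on low values was applied. Levels of different genes come from different probes and are not compared with each other.

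Quiescent and CCl4 cells held nearly all quiescent stellate cell markers above the guide. Many of these were lower in culture and several after CCl4, and other liver cells also left RNA. Of 15 quiescent stellate cell markers, 15 stood above the guide in quiescent cells, with Lrat, the enzyme of retinyl ester storage, at 10.95 and 11.29. Their sum was 28317 to 30141 in quiescent cells, 18281 to 19572 at 2 weeks, 20597 to 20612 at 4 weeks and 5653 to 5872 in culture. In culture 12 of the 15 fell and 1 rose (median -1.75), and Lrat stood at 7.21 and 5.74. At 2 weeks 7 fell and 1 rose (median -0.75), with Vipr1 at -2.13 ± 0.19, and at 4 weeks 8 fell and 2 rose (median -0.68). Over all genes, 10.3% fell and 12.9% rose in culture, 2.43% and 2.34% at 2 weeks, and 4.67% and 4.04% at 4 weeks. Gfap was at or under the guide at 2 weeks, and Colec10, Colec11 and Ngfr in culture. Acta2, the smooth muscle actin of activated cells, stood at 6.78 and 7.24 in quiescent cells, and from 11.70 to 12.71 on the 6 other arrays. Hepatocyte markers (14 measured of 15 listed), summed on the linear scale, reached 25351 and 13982 in quiescent replicates 1 and 2, 6611 to 10012 at 2 weeks, 2875 to 3724 at 4 weeks and 387 to 465 in culture. The sum of 12 sinusoidal endothelial markers ran from 14652 and 9378 in quiescent cells to 4229 to 5056, 3368 to 4067 and 2249 to 2345 in the same order. Most of the sum in culture was Eng, at 10.84 and 10.85, which differed from quiescent cells by only -0.91 ± 0.14. All 12 fell in culture, with a median of -3.73. The summed level of 9 vascular smooth muscle markers was highest in culture, at 8279 to 9140 against 1213 to 1820 on the other arrays. Cnn1 (12.16 and 12.03), also listed for activated stellate cells, and Actg2 (11.51 and 11.31) stood highest there. Of the 9, 4 rose and 2 fell in culture, with Rgs4 at -3.89 ± 0.25. Sums of 8 portal fibroblast and mesothelial markers ran from 738 to 772 in quiescent cells and from 1015 to 1559 on the other arrays. Of these 8, 1 rose in culture (Fbln2, 4.45 ± 0.27, most of the sum there) and 3 fell (Eln, Wt1 and Krt18). At 2 weeks 3 rose and 0 fell, and at 4 weeks 2 rose and 1 fell. Sums of 6 cholangiocyte markers ran from 164 to 202 on all arrays. In culture, 8 hepatocyte markers (Alb, Apob, Fgb, Fgg, Fga, Tat, Fabp1 and Ahsg) and the endothelial Clec4g, Kdr and Tek were at or under the guide. In these bulk samples, fewer cells of a type and less RNA per cell cannot be told apart, and the part of these other cells in the results below was not tested.

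**Figure D1:**
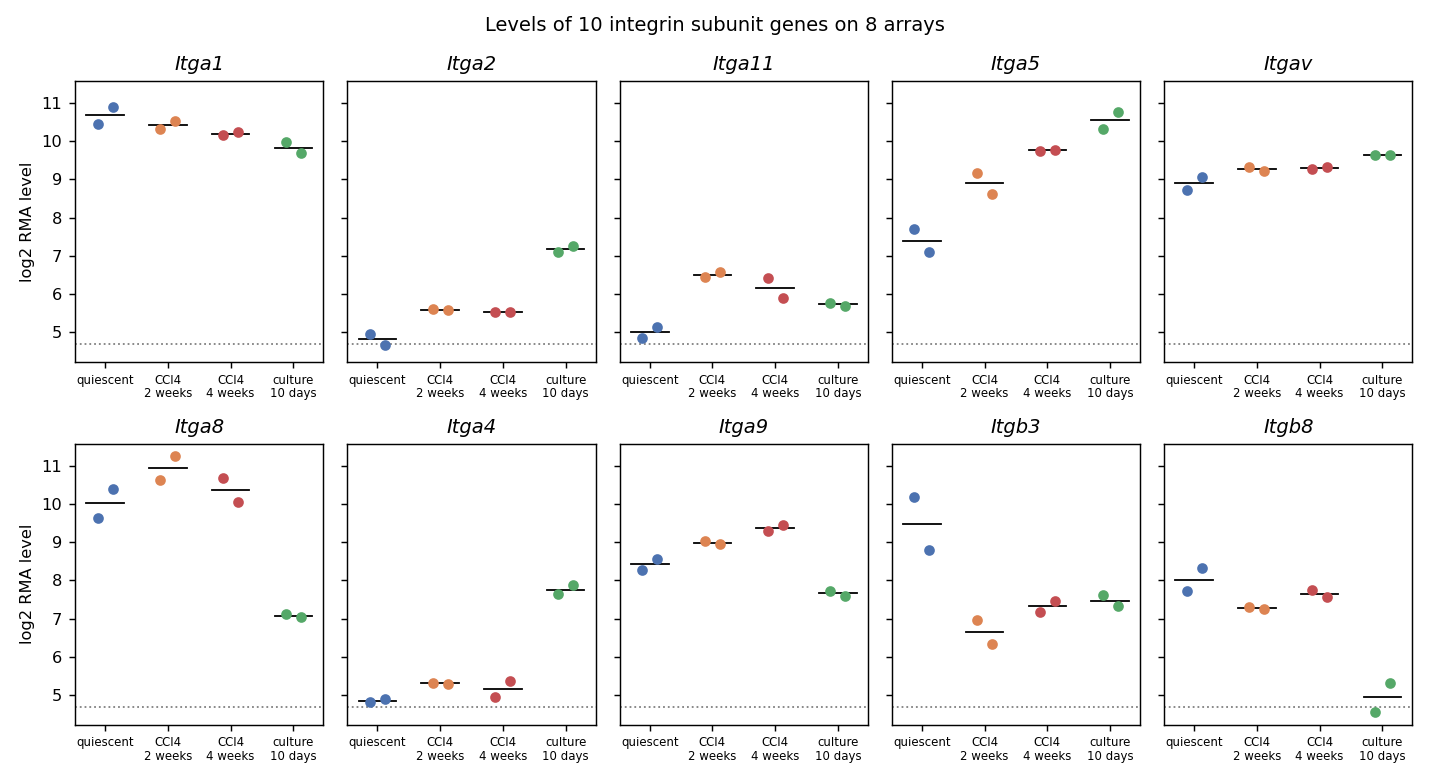
Log2 RMA level (vertical axis) of each of the 10 subunit genes in the 4 groups (horizontal axis); points are single arrays, black bars are means of 2 arrays, and the dotted line is the background guide of 4.69. Itga2, Itga4 and Itga5 are highest in culture, Itga8, Itga9 and Itgb8 are lowest there, and Itgb3 is highest in quiescent cells.

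Of the 3 alpha subunits of collagen receptors, Itga2 and Itga11 were higher in all activated groups than in quiescent cells, and Itga1 was lower in culture. Itga1 read 10.46 and 10.90 on the quiescent arrays, 10.33 and 10.53 on the 2-week CCl4 arrays, 10.16 and 10.23 on the 4-week arrays, and 9.98 and 9.68 on the cultured arrays. The quiescent and 2-week arrays overlapped, and the cultured arrays were the lowest. The difference from quiescent cells was -0.85 ± 0.19 (SE) in culture. It did not pass at 2 weeks (-0.25 ± 0.19, adjusted p = 0.583) or 4 weeks (-0.48 ± 0.19, adjusted p = 0.175).

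Itga2 lay near background in quiescent cells, at 4.96 and 4.67. It stood at 5.60 and 5.58 at 2 weeks, 5.52 and 5.53 at 4 weeks, and 7.09 and 7.26 in culture. All CCl4 arrays were above both quiescent arrays, and both cultured arrays were above every CCl4 array. The rise was 1.71-fold at 2 weeks (0.78 ± 0.15, adjusted p = 0.0217) and 1.64-fold at 4 weeks (0.71 ± 0.15, adjusted p = 0.021), against a difference of 2.36 ± 0.15 in culture. Culture exceeded the mean of the CCl4 arrays 3.07-fold (1.62 ± 0.13, adjusted p = 4.27e-05). Both CCl4 calls were fragile: with 1 array left out, the 2-week call held in 3 of 8 fits (adjusted p up to 0.131 without 2-week replicate 1) and the 4-week call in 5 of 8 (up to 0.123 without 4-week replicate 1). With only the 4 arrays compared in the fit, both were lost (adjusted p = 0.0948 and 0.0647).

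Itga11, whose product binds fibrillar collagen on fibroblasts, took the opposite order, with its highest levels after CCl4. It read 4.86 and 5.14 on the quiescent arrays, 6.44 and 6.57 on the 2-week CCl4 arrays, 6.42 and 5.89 on the 4-week arrays, and 5.77 and 5.70 on the cultured arrays. Every CCl4 array was above both cultured arrays, and these were above both quiescent arrays. It rose 2.84-fold at 2 weeks (1.51 ± 0.19, adjusted p = 0.0044), in all 8 fits with 1 array left out, and 2.23-fold at 4 weeks (1.16 ± 0.19, adjusted p = 0.00789). The 4-week call was lost without 4-week replicate 1 (adjusted p = 0.0622). In culture the difference from quiescent cells was 0.74 ± 0.19, which lay 0.59 ± 0.17 below the CCl4 mean (adjusted p = 0.0353). That last call held in only 3 of 8 fits with 1 array left out, and was lost with the replicate number as a block (adjusted p = 0.0516).

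Among the alpha subunits that bind RGD ligands, Itga5 rose in every activated group, Itgav differed little, and Itga8 was low in culture alone of the 4 groups. Itga5, the fibronectin receptor subunit, read 7.70 and 7.10 on the quiescent arrays, 9.18 and 8.62 on the 2-week CCl4 arrays, 9.75 and 9.77 on the 4-week arrays, and 10.33 and 10.76 on the cultured arrays. The 4 groups did not overlap. It rose 2.83-fold at 2 weeks (1.50 ± 0.25, adjusted p = 0.0132) and 5.13-fold at 4 weeks (2.36 ± 0.25, adjusted p = 0.00094), and culture differed from quiescent cells by 3.14 ± 0.25. The step from 2 to 4 weeks was 0.86 ± 0.25 and did not pass (adjusted p = 0.36). Culture lay 2.32-fold above the CCl4 mean (1.21 ± 0.22, adjusted p = 0.00416). The 2-week call was lost without 2-week replicate 1 (adjusted p = 0.113) and when only the 4 arrays compared were fitted (0.0613), and the excess in culture without culture replicate 2 (0.0566).

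Itgav, the alpha subunit shared by beta1, beta3, beta5, beta6 and beta8, read 8.72 and 9.07 on the quiescent arrays, 9.33 and 9.22 on the 2-week CCl4 arrays, 9.28 and 9.33 on the 4-week arrays, and 9.63 and 9.64 on the cultured arrays. The quiescent arrays were the lowest and the cultured arrays the highest, within less than 1 log2 unit. Neither CCl4 difference passed, with 0.38 ± 0.15 for 2 weeks (adjusted p = 0.244) and 0.41 ± 0.15 for 4 weeks (adjusted p = 0.163), beside 0.74 ± 0.15 in culture. A second, dimmer Itgav probe set (mean 4.39 against 9.28), at background level, differed by 0.09 ± 0.19 in culture and by 0.76 ± 0.19 at 2 weeks (adjusted p = 0.0575), and lay below the CCl4 mean in culture (-0.53 ± 0.16, adjusted p = 0.0495).

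Itga8, the nephronectin receptor subunit that stellate cells share with smooth muscle, was high in all unseeded cells and low on plastic. It read 9.64 and 10.39 on the quiescent arrays, 10.62 and 11.24 on the 2-week CCl4 arrays, 10.69 and 10.06 on the 4-week arrays, and 7.11 and 7.03 on the cultured arrays. The lowest array of unseeded cells lay 2.53 log2 units above the higher cultured array. The differences from quiescent cells were 0.92 ± 0.30 at 2 weeks (adjusted p = 0.15) and 0.36 ± 0.30 at 4 weeks (adjusted p = 0.607), neither past the threshold, against -2.94 ± 0.30 in culture. Set directly against the CCl4 arrays, culture was 12-fold lower (-3.59 ± 0.26, adjusted p = 2.68e-05), in all 8 fits with 1 array left out.

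The branch of alpha4 and alpha9 split, with Itga4 high in culture and Itga9 low there. Itga4, a subunit best known from leukocytes, lay close to background at 4.81 and 4.90 in quiescent cells, 5.32 and 5.30 at 2 weeks, and 4.95 and 5.36 at 4 weeks, against 7.65 and 7.87 in culture. The cultured arrays stood clear of the other 6, which lay at 5.36 or below. Its differences after CCl4 did not pass (0.45 ± 0.17, adjusted p = 0.209, and 0.30 ± 0.17, adjusted p = 0.389). The excess of culture over CCl4 was 5.76-fold (2.53 ± 0.15, adjusted p = 6.97e-06). Of leukocyte markers, 12 of lymphocytes summed to 273 to 274 in culture and 396 to 529 on the other arrays. The 11 macrophage markers summed to 1168 to 1417 in culture, 2828 to 3622 in quiescent cells, 2734 to 3269 at 2 weeks and 951 to 975 at 4 weeks. Culture thus lay above the 4-week arrays by the sum, in which Cd68 weighed most, at 8.99 and 9.08 against 8.19 and 8.33. Single markers were divided: Clec4f, Csf1r, Marco, Timd4 and Cd5l had lower means in culture than at 4 weeks, and the rest had higher means. The part of such cells in the Itga4 values was not tested. Among the lymphocyte markers, Cd3g, Cd4, Cd8a, Cd79a, Ms4a1 and Klrb1c were at or under the guide in every group. Cd79b was so in all but the 4-week group, and Cd3d in culture and at 4 weeks.

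Itga9, which pairs with beta1 to bind tenascin C and other ligands, read 8.27 and 8.57 on the quiescent arrays, 9.02 and 8.95 on the 2-week CCl4 arrays, 9.30 and 9.45 on the 4-week arrays, and 7.73 and 7.60 on the cultured arrays. The groups did not overlap, in the order culture, quiescent, 2 weeks and 4 weeks from low to high. It rose 1.94-fold at 4 weeks (0.95 ± 0.15, adjusted p = 0.00605), while the 2-week difference of 0.56 ± 0.15 did not pass (adjusted p = 0.0791). Culture differed from quiescent cells by -0.76 ± 0.15 and lay 2.86-fold below the CCl4 mean (-1.52 ± 0.13, adjusted p = 6.77e-05). The 4-week call was lost without 4-week replicate 2 (adjusted p = 0.0604), and the contrast with culture held in all 8 fits with 1 array left out.

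Both beta subunits were lower in culture than in quiescent cells, but only Itgb3 also fell after CCl4 in the tests. Itgb3, the beta subunit of the vitronectin receptor and of the platelet fibrinogen receptor, read 10.17 and 8.79 on the quiescent arrays, 6.96 and 6.34 on the 2-week CCl4 arrays, 7.17 and 7.47 on the 4-week arrays, and 7.62 and 7.32 on the cultured arrays. The 2 quiescent arrays were 1.38 log2 units apart, the widest gap of any of the 10 genes in any group, and both stood above the other 6. Itgb3 was 7.12-fold lower at 2 weeks (-2.83 ± 0.40, adjusted p = 0.00602) and 4.48-fold lower at 4 weeks (-2.16 ± 0.40, adjusted p = 0.0116), against -2.01 ± 0.40 in culture. Culture and CCl4 did not differ by the test (0.49 ± 0.34, adjusted p = 0.407).

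The quiescent array with the higher Itgb3, replicate 1, also had the higher hepatocyte and endothelial sums given above. The 7 platelet markers measured of 9 listed summed to 782 and 504 on quiescent replicates 1 and 2, and to 284 to 427 on the 6 other arrays. Clec1b, the highest of the 7 on quiescent replicate 1, stood at 9.18 and 7.53 in quiescent cells and set the order of their 2 sums. Pf4 went the other way, at 6.61 and 7.75, while Gp9, Gp6 and Tubb1 were at or under the guide in every group. Ppbp, near background in quiescent cells, stood at 6.39 and 7.09 in culture (2.13 ± 0.28, adjusted p = 0.000638), where Itgb3 was lower. The part of platelets in the Itgb3 values was not tested. Without quiescent replicate 1, the Itgb3 difference was -2.14 at 2 weeks (adjusted p = 0.00538), -1.47 at 4 weeks (adjusted p = 0.0169) and -1.32 in culture. The call was lost at 2 weeks without 2-week replicate 2 (adjusted p = 0.0514), and at 4 weeks without 4-week replicate 1 (0.103) or 2 (0.063).

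Itgb8, which pairs with alphav alone, read 7.73 and 8.31 on the quiescent arrays, 7.31 and 7.24 on the 2-week CCl4 arrays, 7.74 and 7.57 on the 4-week arrays, and 4.56 and 5.32 on the cultured arrays. The cultured arrays lay close to background and below all 6 arrays of unseeded cells. The differences after CCl4 did not pass (-0.75 ± 0.26, adjusted p = 0.181, and -0.37 ± 0.26, adjusted p = 0.533). Culture differed from quiescent cells by -3.08 ± 0.26 and was 5.74-fold below the CCl4 mean (-2.52 ± 0.23, adjusted p = 8.93e-05), in all 8 fits with 1 array left out.

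**Figure D2:**
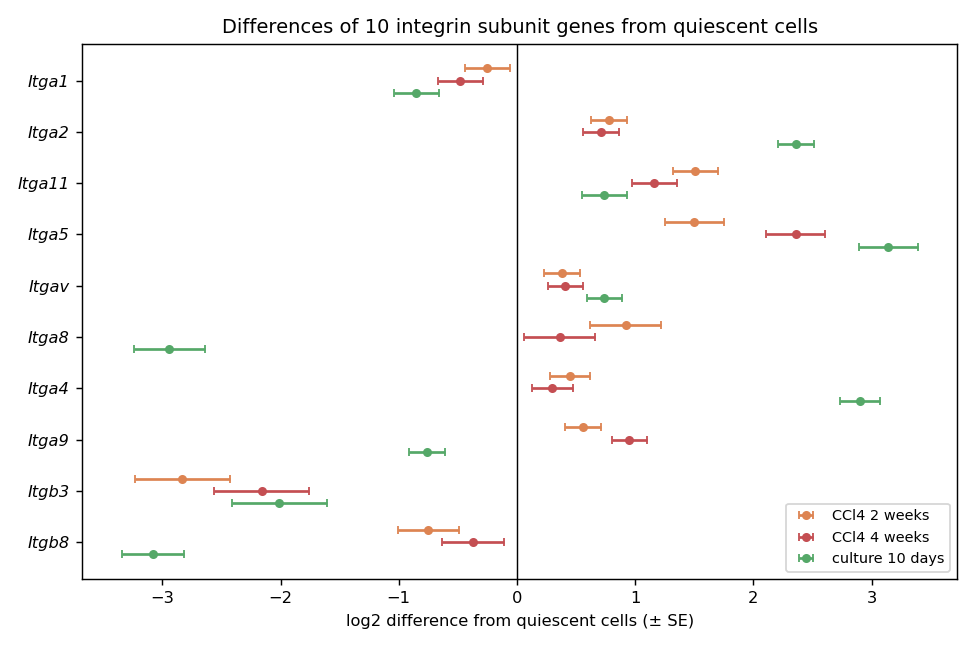
Log2 difference from quiescent cells (horizontal axis, ± SE from the limma fit, 2 arrays per group) of the 10 subunit genes at 2 and 4 weeks of CCl4 and after 10 days of culture. Itga8 and Itga9 lie on opposite sides of 0 in culture and after CCl4, where the Itga8 differences did not pass the test; the 3 comparisons share the quiescent arrays.

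Counted over the 10 genes, culture against quiescent cells gave 5 higher and 5 lower at an adjusted p under 0.05, where 23.2% of all genes were called; the choice of genes used that contrast, so nothing is read from the count. Of these, Itga1 and Itga11 missed the threshold with some single arrays left out. At 2 weeks of CCl4, 3 rose (Itga2, Itga5 and Itga11) and 1 fell (Itgb3), with 4.77% of all genes called. At 4 weeks, 4 rose (those and Itga9) and 1 fell (Itgb3), with 8.71% of all genes called. The median difference of the 10 was 0.51 and 0.39 at 2 and 4 weeks, beside medians of 0.00 over all genes. Without either 2-week array 2 of the 10 passed at 2 weeks, and without either 4-week array 2 passed at 4 weeks. These comparisons share the quiescent arrays with the contrast above and are not independent of it. Whether the choice of genes also drew on the CCl4 groups is unknown here, so nothing is read from these counts and medians. Between 4 and 2 weeks, 0 of the 10 passed in limma, 2 (Itga5 and Itga9) had an unadjusted p under 0.05, and 0.0857% of all genes were called.

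The fit also set the cultured arrays directly against the 4 CCl4 arrays. Of the 10, 3 were higher in culture (Itga2, Itga4 and Itga5) and 4 lower (Itga8, Itga9, Itga11 and Itgb8), with 21.3% of all genes called. Itga1 (-0.48 ± 0.16, adjusted p = 0.0673), Itgav (0.34 ± 0.13, adjusted p = 0.107) and Itgb3 did not pass. The RGD-binding alpha subunits lay on both sides, as did the alpha4 and alpha9 branch. The collagen receptor subunits did so too, but their only lower call, Itga11, was fragile, as given above. This comparison shares the cultured arrays with the contrast that the choice used, so nothing is read from its counts. Its p-values for the 10 genes are not independent of the choice either.

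**Figure D3:**
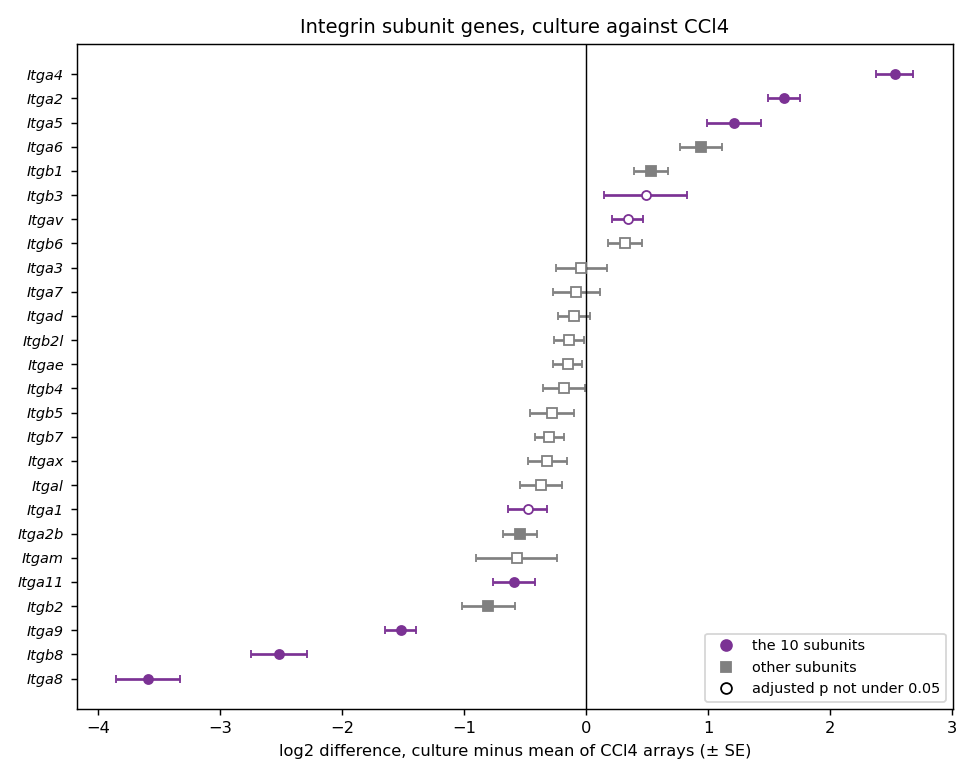
Log2 difference of culture minus the mean of the 4 CCl4 arrays (horizontal axis, ± SE) for all 26 measured integrin subunit genes, with circles for the 10 described above, squares for the others and open symbols where the adjusted p was not under 0.05. Differences run from -3.59 for Itga8 to 2.53 for Itga4, and those of the 16 other subunits from -0.80 to 0.94.

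Of the 16 other measured subunits, 3 passed in culture and 1 at 4 weeks. Since subunits that moved in culture were mostly taken into the 10, nothing is read from these counts. Itgb1, the partner of most of the alpha subunits above, read 10.94 and 11.29 on the quiescent arrays, 11.23 and 11.16 on the 2-week CCl4 arrays, 11.24 and 11.43 on the 4-week arrays, and 11.72 and 11.86 on the cultured arrays. It rose 1.6-fold in culture (0.67 ± 0.16, adjusted p = 0.0154), without passing at 2 weeks (0.08 ± 0.16, adjusted p = 0.882) or 4 weeks (0.22 ± 0.16, adjusted p = 0.551). The culture call was lost without quiescent replicate 1 or culture replicate 2 (adjusted p up to 0.0985) and when only the 4 arrays compared were fitted (0.0515). Itgb5, an alphav partner, passed in no comparison and stood between 8.97 and 9.98 on all arrays.

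The leukocyte and platelet subunits Itgal, an alpha subunit of lymphocytes and other leukocytes, and Itga2b, the platelet partner of Itgb3, fell in culture (-1.08 ± 0.20, adjusted p = 0.0042, and -0.96 ± 0.16, adjusted p = 0.00287). Itgal also fell at 4 weeks (-0.87 ± 0.20, adjusted p = 0.0304), in 5 of 8 fits with 1 array left out. Itgb2, the leukocyte beta subunit, stood at 7.34 and 7.35 at 2 weeks and from 5.58 to 6.51 on the other 6 arrays. Its 2-week difference from quiescent cells did not pass (0.86 ± 0.26, adjusted p = 0.115). At 2 weeks, 0 of the 16 passed in limma and 5 had an unadjusted p under 0.05; at 4 weeks against 2 weeks, 0 passed and 1 had an unadjusted p under 0.05.

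Monocyte and neutrophil markers (10) summed to 5289 and 1661 in quiescent replicates 1 and 2, 1857 to 3430 at 2 weeks, 1400 to 1751 at 4 weeks and 300 to 340 in culture. The macrophage sums given above were also lower at 4 weeks than at 2 weeks, with 4 of 11 markers called lower and 11 lower at an unadjusted p under 0.05. Itgb2 differed by -1.02 ± 0.26 between these times (adjusted p = 0.256). The part of such cells in the Itgb2 and Itgal values was not tested.

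Itga6, a laminin receptor subunit, stood at 4.97 and 5.35 in culture and at or below 4.65 on the 6 other arrays, under the guide. The contrast of culture with CCl4 passed (0.94 ± 0.17, adjusted p = 0.00375), but no fold is given because all CCl4 arrays were under the guide. The call was lost without culture replicate 2 (adjusted p = 0.0512). Itgb1 (0.53 ± 0.14, adjusted p = 0.027), Itgb2 (-0.80 ± 0.22, adjusted p = 0.0342) and Itga2b (-0.54 ± 0.14, adjusted p = 0.0256) also passed in that comparison, in 3, 3 and 4 of 8 fits with 1 array left out. Itga3, Itga7, Itgad, Itgae, Itgam, Itgax, Itgb2l, Itgb4, Itgb6 and Itgb7 passed in none of the 5 comparisons. Of these, Itgad, Itgae, Itgb2l and Itgb6 lay under the guide on all 8 arrays. Itga10, the remaining subunit listed, was not analysed here.

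**Figure D4:**
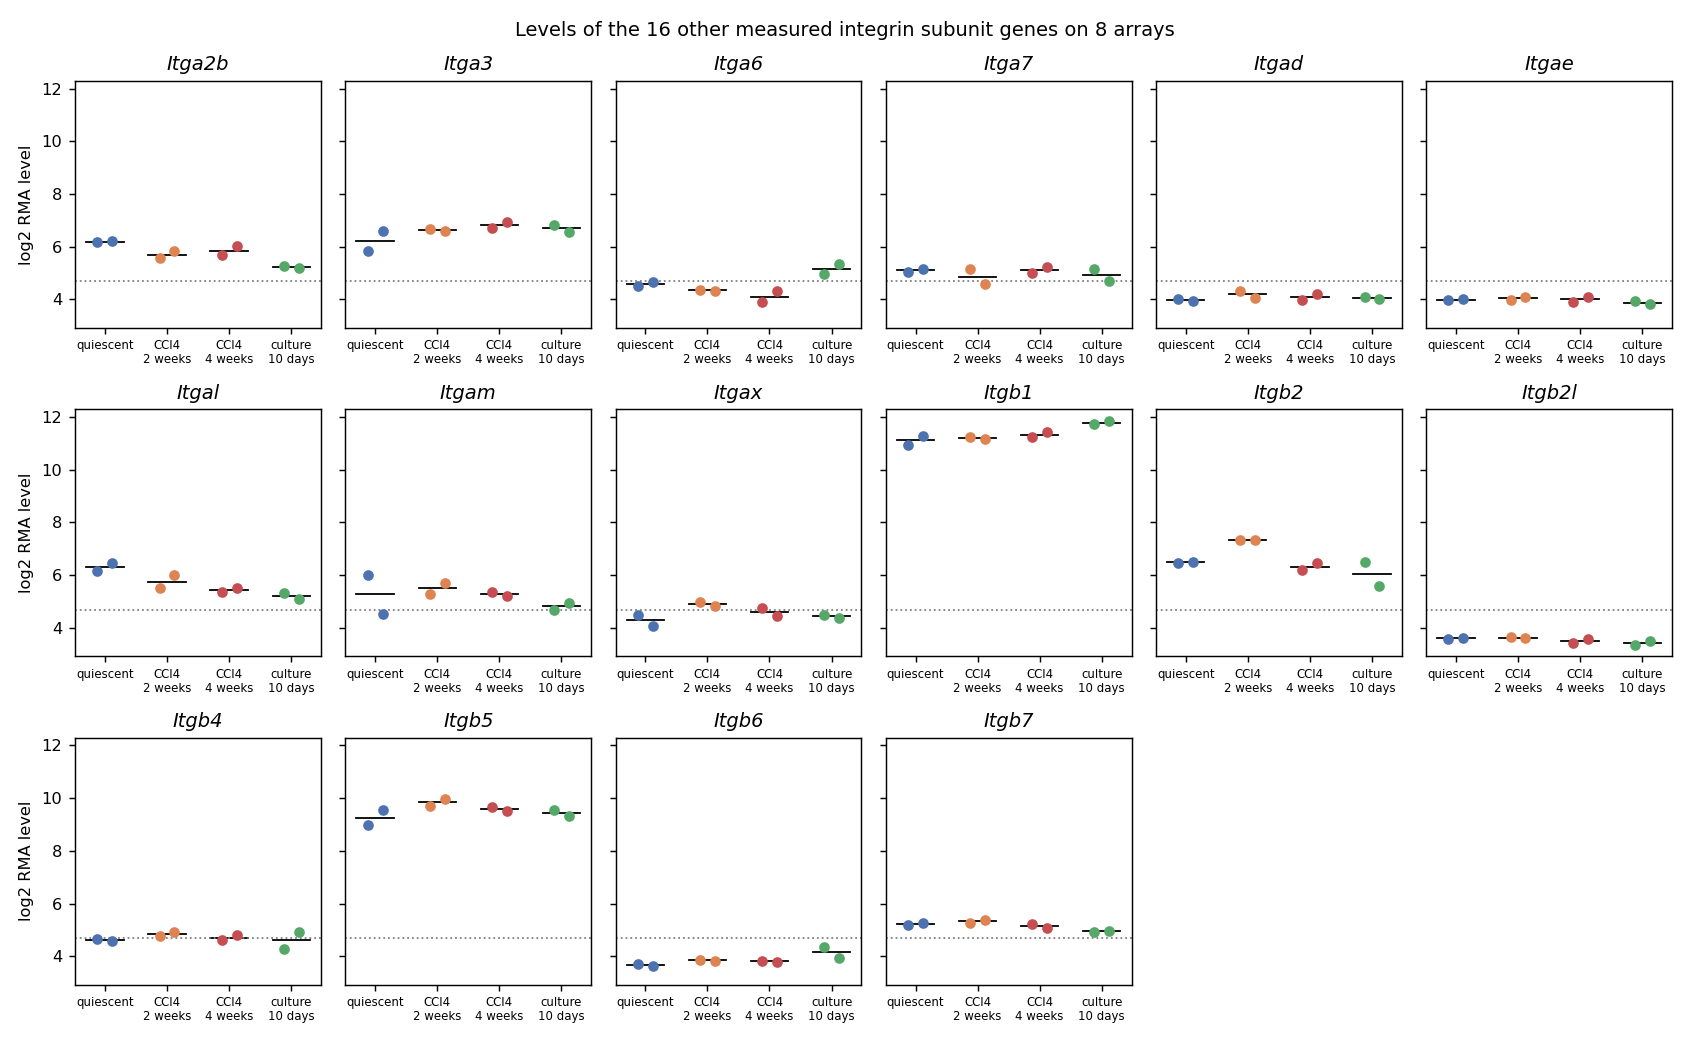
Log2 RMA level (vertical axis) of the 16 other measured integrin subunit genes in the 4 groups; points are single arrays, bars are means of 2 arrays and the dotted line is the background guide of 4.69. Itgb1 and Itgb5 lie at 8.97 or above on all arrays, and Itgb2 is highest at 2 weeks of CCl4.

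The ligands of these receptors were also measured, on lists drawn up from what the receptors bind, with earlier results of these data known. The counts below are therefore not independent of these data. For comparison, the shares of all genes called higher and lower were 12.9% and 10.3% in culture, 2.34% and 2.43% at 2 weeks, 4.04% and 4.67% at 4 weeks, and 12.6% and 8.72% for culture against CCl4. Of 13 collagen genes, 9 rose and 0 fell at 2 weeks of CCl4, and 10 rose and 0 fell at 4 weeks, with medians of 1.35 and 1.28; 0 falls were seen at an unadjusted p under 0.05 as well. Col1a1 (3.18 ± 0.27 and 2.70 ± 0.27) and Col4a2 (1.62 ± 0.15 and 1.94 ± 0.15) were among them. In culture 4 rose and 3 fell, with Col5a2 at 3.32 ± 0.28, and Col6a1, Col6a2 and Col6a3 at -2.45 ± 0.17, -1.90 ± 0.25 and -3.35 ± 0.31. Against CCl4, 8 collagens were lower in culture and 0 higher, where 1 was higher at an unadjusted p under 0.05.

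Of 11 ligands of alpha4 and alpha9, 7 rose at 2 weeks and 6 at 4 weeks, with 0 falls at either time, also at an unadjusted p under 0.05. Tnc, tenascin C, stood at 4.95 and 5.76 in quiescent cells and from 10.46 to 11.42 on the 6 other arrays. Svep1, a large matrix protein that binds alpha9, stood at 6.98 and 7.32 in quiescent cells, 9.75 to 10.10 after CCl4, and 6.26 and 5.01 in culture. Against CCl4, Svep1 (-4.28 ± 0.29), Emilin1 (-2.84 ± 0.17) and Vcam1 (-1.48 ± 0.14) were lower in culture, and Vegfa (1.20 ± 0.16) was higher. Their adjusted p in that comparison lay between 7.93e-06 and 0.000858.

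Of 16 genes whose products carry or are bound as RGD ligands, 6 rose and 5 fell in culture, 3 rose and 5 fell at 2 weeks, and 5 rose and 5 fell at 4 weeks. Fn1, fibronectin, stood at 10.96 and 10.74 in quiescent cells, 11.63 to 11.91 after CCl4, and 10.70 and 10.75 in culture, so that it was lower in culture than after CCl4 (-1.06 ± 0.13, adjusted p = 0.000491). Npnt, the nephronectin ligand of alpha8, lay at or under 4.58 in all unseeded cells and stood at 6.23 and 5.59 in culture (against CCl4, 1.60 ± 0.20, adjusted p = 0.000557). Thbs1, thrombospondin, rose by 2.48 ± 0.16 at 2 weeks, 3.02 ± 0.16 at 4 weeks and 2.40 ± 0.16 in culture. The falls were the liver plasma proteins Fga, Fgb, Fgg and Vtn, and Tgfbi, in all 3 comparisons, with Fgg at -3.03 ± 0.48 after 2 weeks, -5.10 ± 0.48 after 4 weeks and -7.10 ± 0.48 in culture. The hepatocyte sums above include Fga, Fgb and Fgg, so they are no separate measure of these falls. The part of hepatocytes in them was not tested. The 2-week call of Vtn held in 1 of 8 fits with 1 array left out (adjusted p up to 0.273). Tgfbi, a secreted protein with an RGD sequence, was lower in culture than after CCl4 (-6.14 ± 0.16, adjusted p = 7.68e-08).

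Among 9 genes of latent TGF-beta, the cargo of alphav integrins, 4 rose and 2 fell in culture, 3 rose and 1 fell at 2 weeks, and 4 rose with 0 falls at 4 weeks (1 at an unadjusted p under 0.05). The ligands Tgfb2 (1.95 ± 0.26, 1.89 ± 0.26 and 4.07 ± 0.26) and Tgfb3 (2.79 ± 0.26, 3.40 ± 0.26 and 4.47 ± 0.26) rose at 2 weeks, at 4 weeks and in culture. Tgfb1 did not pass (-0.39 ± 0.18, adjusted p = 0.175 in culture). Ltbp2, which despite its name is a microfibril protein, rose by 3.86 ± 0.17 in culture, and Ltbp4, a binding protein of the same family, fell there by 4.30 on the log2 scale (SE 0.22). The other fall in culture, Nrros (-0.56 ± 0.17, adjusted p = 0.0392), held in 2 of 8 fits with 1 array left out and was lost under 5 other settings, the replicate block among them. The 2-week fall, Ltbp4 (-1.05 ± 0.22, adjusted p = 0.0304), also held in 2 of 8.

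Integrin adaptors and kinases were counted on a list of 35, also chosen with earlier results known, of which 30 were measured. The list holds proteins that link integrin tails to actin, and also kinases such as Src and Ptk2b and other adaptors such as Dab2. In culture 11 rose and 4 fell, at 2 weeks 2 rose and 2 fell, and at 4 weeks 3 rose and 2 fell, with medians of 0.16, 0.09 and 0.09. As shares of the 30 these are 36.7% and 13.3%, 6.67% and 6.67%, and 10% and 6.67%, of which the falls in culture and at 4 weeks lie near the shares over all genes given above. Rises at 2 weeks, at 4 weeks and in culture were 1.49 ± 0.27, 1.93 ± 0.27 and 2.76 ± 0.27 for the crosslinker Actn1, and 1.44 ± 0.18, 1.37 ± 0.18 and 2.65 ± 0.18 for the talin recruiter Apbb1ip. The tensin Tns2 fell in all 3, by 1.12 at 2 weeks and 2.46 in culture on the log2 scale (SE 0.15). Of the talins, Tln1 rose in culture (0.63 ± 0.16, adjusted p = 0.0189) and Tln2 fell (-1.82 ± 0.21, adjusted p = 0.000299). Tln2 also fell at 2 weeks (-1.04 ± 0.21, adjusted p = 0.0264), in 3 of 8 fits with 1 array left out, and at 4 weeks (-1.10 ± 0.21, adjusted p = 0.0134), in 6 of 8. The Tln1 call was lost in 3 of 8 fits with 1 array left out, those without quiescent replicate 1 or either cultured array. Fermt2, the kindlin of these cells, stood between 9.59 and 9.98 on all arrays and passed in no comparison. The 2-week call of Actn1 was lost without either 2-week array (adjusted p up to 0.133).

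Genes whose levels followed a subunit most closely over the 8 arrays were sought among 12701 genes above the guide. The nearest were Sgms2 for Itga2 (Pearson r = 0.997), Ap2a2 for Itga4 (0.998), Ppa1 for Itga5 (0.994), Alcam for Itga8 (0.996) and Kat6a for Itgb8 (0.995). The nearest to Itga1 was Tmtc2 (0.99), to Itga9 Gfra2 (0.991), to Itga11 Gbf1 (0.99) and to Itgav Tpm2 (0.992). For Itgb3 the closest gene, Il4ra, reached 0.959. The 8 arrays fall into 4 groups of 2, so these values describe group differences in common and carry no test.

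Promoters of the subunits were read from RefSeq (GRCm38.p6), which held a sequence for 9 of the 10 (all but Itgb3). In the 250 bases before the start, the TEAD core GGAATG, through which YAP is recruited to DNA, occurred on either strand in 0 of the 9, against 12.6% of 32851 promoters. The AP-1 site TGANTCA occurred in 0 of the 9, against 6.75%. The GC box GGGCGG occurred in 2 of the 9, against 32.7%. The stretches around it are shown for the 2 with a match, Itga4 and Itga5, the latter with 2 matches, 143 and 0 bases before the start. Capitals mark the GC box, on the gene's own strand for Itga4 and on the opposite strand for Itga5. A match describes these letters alone, and its absence says nothing of sites elsewhere.
Itga4, chr2:79255282-79255347, + strand: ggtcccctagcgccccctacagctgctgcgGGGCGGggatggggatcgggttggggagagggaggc
Itga5, chr15:103366905-103366970, - strand: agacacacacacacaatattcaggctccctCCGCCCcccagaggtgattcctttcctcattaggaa
Itga5, chr15:103366792-103366827, - strand: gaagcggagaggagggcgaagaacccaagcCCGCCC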

How the data were processed

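Per the submitters' processing notes, the authors deposited log2 expression values made with RMA in Affymetrix Expression Console; versions and the build of the array design are not given in the sources used here. Per the labels' protocols, RNA was preamplified and labelled with biotin. RMA quantile normalizes the arrays together, so shifts common to most genes are lost. Of 41345 probe sets, 23521 carried 1 symbol and gave 22180 genes; 1814 with several symbols were not used. The test was limma 3.58.1 (R 4.3.3; lmFit, eBayes, two-sided), with 8 arrays of 4 groups in 1 fit, 4 residual and 4.75 prior degrees of freedom. P-values were Benjamini-Hochberg adjusted over 22180 genes in each of 5 comparisons and called under 0.05. The fit was tested on simulated data. For arrays, their number limits the precision: permuting 2 against 2 gives an exact p of at least 0.333, so this was not used. Members and lists were chosen with earlier results of these data known. Named genes were all integrin subunits, up to 4 called genes with the smallest p per ligand or adaptor list and comparison, called genes of a list that went the other way, and the 2 genes most like each member; Tgfb1, Tln1, Fermt2 and single cell type markers were named beyond that rule after their values were seen. Alternatives were the arrays compared alone, a replicate block, each array left out, trend and robust options, averaged probe sets, a filter on low values, 2 scalings and array weights.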

Additional observations from a re-analysis of the deposited data

Results flagged for a closer look

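In 11 of the 26 integrin subunits, the change in culture differed from that after CCl4. The test was the direct contrast of culture with the mean of the CCl4 arrays (limma, adjusted over all genes), which called 21.3% of all genes. Of the 11, 7 are among the subunits chosen on earlier results of these arrays. The contrast shares the cultured arrays with the one that choice is taken to rest on. Nothing is therefore read from the count of 11 beside the share of all genes. The log2 difference was 2.53 for Itga4, 1.62 for Itga2, 1.21 for Itga5, 0.94 for Itga6 and 0.53 for Itgb1, all higher in culture, though Itga6 lay under the background guide after CCl4. It was -3.59 for Itga8, -2.52 for Itgb8, -1.52 for Itga9, -0.80 for Itgb2, -0.59 for Itga11 and -0.54 for Itga2b, all lower in culture. The mean CCl4 difference from quiescent cells was 0.64 for Itga8 and 0.76 for Itga9, on the other side of 0 from culture (-2.94 and -0.76). The same held for Itga6 (-0.34, against 0.60 in culture) and Itgb2 (0.34, against -0.45). Of the differences of these genes from quiescent cells at either CCl4 time, only that of Itga9 at 4 weeks passed. The culture differences of Itga6 and Itgb2 from quiescent cells did not pass. Groups of 2 arrays are too small for a check on single outlying arrays.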

How the results depend on the processing

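Among the 10 subunits, no alternative turned the direction of a called difference. Settings other than leaving out an array ended 6 calls and made 4. When only the arrays compared were fitted, 2 of the 10 (against 4 as reported) passed at 2 weeks, and over all genes 372 passed at 2 weeks (1058), 1205 at 4 weeks (1932) and 82 between the CCl4 times (19). Array weights gave 33 there. Median scaling gave 5 of the 16 other subunits in culture (3). Averaging its probe sets left Itgav at 0.42 in culture (adjusted p = 0.0649). The deviations of same-numbered arrays correlated between -0.042 and 0.0737, so the numbers do not show a pairing; the replicate block gave 9 genes between the CCl4 times and otherwise moved no count by over 1.5 times. With 1 array left out, where a lone array is assumed to vary like the others, the 10 gave 8 to 10 calls in culture, 2 to 5 at 2 weeks, 2 to 5 at 4 weeks, 0 to 0 between the CCl4 times and 5 to 8 for culture against CCl4. The 16 others gave 2 to 5, 0 to 2, 0 to 1, 0 to 0 and 0 to 5. All genes gave 3505 to 4962, 260 to 1430, 652 to 2113, 0 to 85 and 2846 to 5225. The fewest calls over all genes came without culture replicate 2 in both comparisons of culture, 2-week replicate 1 at 2 weeks and 4-week replicate 1 at 4 weeks. Col3a1 in culture moved from -0.02 to 0.83 (adjusted p = 0.0297) without quiescent replicate 2 and to -0.86 without quiescent replicate 1. The cause of lost calls was not tested.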
